A study of Mus musculus with 5 samples.

Results

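The genes described here are 40 genes of apoptosis, the programmed death of cells by caspase proteases: the transcription factor p53 and its regulators, the Bcl2 family, the caspases and their inhibitors, and the death receptor arm. They were taken by symbol from a table of 21801 genes, and 39 of the 40 had a row. Bcl2a1a was not analysed here. RNA sequencing measured them in 5 libraries of mouse neuroepithelial cells (NECs), the dividing cells of the early neural tube from which neurons and glia descend. All 5 libraries form 1 group with no treatment or genotype named, and the series text calls the cells purified, while strain, embryonic age and purification method are unstated in the labels at hand.

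Apoptosis by the mitochondrial route is decided among Bcl2 family proteins. BH3-only proteins, some of them made under p53, bind the pro-survival members and free the pore-forming Bax and Bak1, cytochrome c leaves the mitochondria, and Apaf1 gathers Casp9 into the apoptosome, which activates the executioner caspases. In the death receptor route, Fas and its relatives activate Casp8 through Fadd. Mouse embryos that lack Apaf1 or Casp9 are known for an overgrown forebrain, which made this pathway a classical subject of studies of neural progenitors.

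A level is given in FPKM, which scales sequenced fragments by the length of the transcript and by each 1000000 mapped reads. Levels of different genes are set side by side on this scale, though amplification can favour some transcripts. How evenly reads covered the transcripts was not tested. Means are given ± SD over the 5 libraries (n = 5). A gene was called above or below 1 FPKM by limma's moderated test on log2(FPKM + 1), two-sided, at a Benjamini-Hochberg adjusted p under 0.05 over 19706 genes. Whether the replicates stem from separate animals is not stated, so a p-value here reflects the spread among 5 libraries, possibly a technical spread. Step sizes among low values gave totals of 20.4 to 28.1 M reads (1 M = 1000000) per library, so that a single read of a 2000-base transcript amounts to 0.0198 to 0.0272 FPKM. Of 10 neuroepithelial markers 9 lay above 1 FPKM, and their summed level ran from 249 to 297 FPKM. Markers of mesenchyme, meninges and pericytes were also present, with 8 of 9 above and sums of 38.6, 66.7, 141, 116 and 117 FPKM in replicates 1 to 5. Surface ectoderm markers (5 of 7 above) summed to 93.1 to 137 FPKM, neural crest markers (4 of 6) to 31.3 to 62.9, neuron markers (5 of 7) to 87.7 to 124 and endothelial markers (1 of 5) to 4.996 to 7.96. Of all tested genes 52.3% lay above 1 FPKM.

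Because p53 acts by binding DNA, the 250 bases before a start annotated by RefSeq are shown for 3 genes that the levels below turn on. Bax is the dominant pore former, and Mdm2 marks p53 for destruction and is itself made under p53. Bbc3 is a BH3-only gene under p53 that lay near 0 here. The sequences are those of GRCm38.p6, written along the strand of the gene. Capitals mark a match to the p53 motif of 10 bases, of which a full response element holds a pair.
Bax, chr7:45466899-45467148, minus strand: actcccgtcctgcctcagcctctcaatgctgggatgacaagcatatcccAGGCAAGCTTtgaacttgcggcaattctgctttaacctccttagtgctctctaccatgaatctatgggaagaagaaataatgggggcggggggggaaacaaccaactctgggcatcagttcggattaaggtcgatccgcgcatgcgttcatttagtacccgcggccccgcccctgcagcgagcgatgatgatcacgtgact
Mdm2, chr10:117710759-117711008, minus strand: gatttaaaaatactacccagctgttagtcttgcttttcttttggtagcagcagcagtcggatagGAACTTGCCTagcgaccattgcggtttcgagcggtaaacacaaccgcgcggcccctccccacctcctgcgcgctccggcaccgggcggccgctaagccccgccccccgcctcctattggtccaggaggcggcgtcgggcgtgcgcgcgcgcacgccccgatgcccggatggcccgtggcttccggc
Bbc3, chr7:16309333-16309582, plus strand: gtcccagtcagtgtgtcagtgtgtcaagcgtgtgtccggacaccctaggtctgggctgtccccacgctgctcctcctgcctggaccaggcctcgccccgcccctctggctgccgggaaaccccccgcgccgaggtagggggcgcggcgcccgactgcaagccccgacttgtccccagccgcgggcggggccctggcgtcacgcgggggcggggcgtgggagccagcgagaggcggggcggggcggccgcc

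The motif is its own reverse complement, so a match holds for both strands, and it was searched in the windows of 35 members that the RefSeq table held. It occurred before the start of 5 of them (14.3%), Trp53, Mdm2, Ccng1, Bax and Bmf, against 8.2% of all 27025 genes. Counted by window, it occurred in 5 of the members' 48 windows, against 7.13% of all 32851 windows of that length. In Bax it began 201 bases before the start and in Mdm2 186 bases before it. None of the 3 windows listed for Bbc3 held it, which says only that these letters are absent there. All 3 lie inside the gene as GENCODE places it, from 16308393 on the plus strand, so the bases before that start were not searched. The shown window was 76.4% G and C, against a median of 52.4% over all windows. A match is a description of the sequence and not a bound site.

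Apoptosis transcripts were mostly present. All 39 members passed the filter, being listed above 0 somewhere. Above 1 FPKM lay 30 of them (76.9%), where 52.3% of all tested genes did. Below it lay 7 (17.9%), where 41.4% of all tested genes did, and 2 were called neither way. The median of the members' mean levels was 6.55 FPKM, against 1.79 over all tested genes, and 17 members (43.6%) reached 10 FPKM, as 29.7% of tested genes did. The 7 below were the p53 target Sesn2, the BH3-only genes Bbc3 and Hrk, Casp1, Casp12, the mitochondrial nuclease Endog and the death receptor Fas. The 2 called neither way were the pore former Bak1 and the pro-survival gene Bcl2l2.

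**Figure D1:**
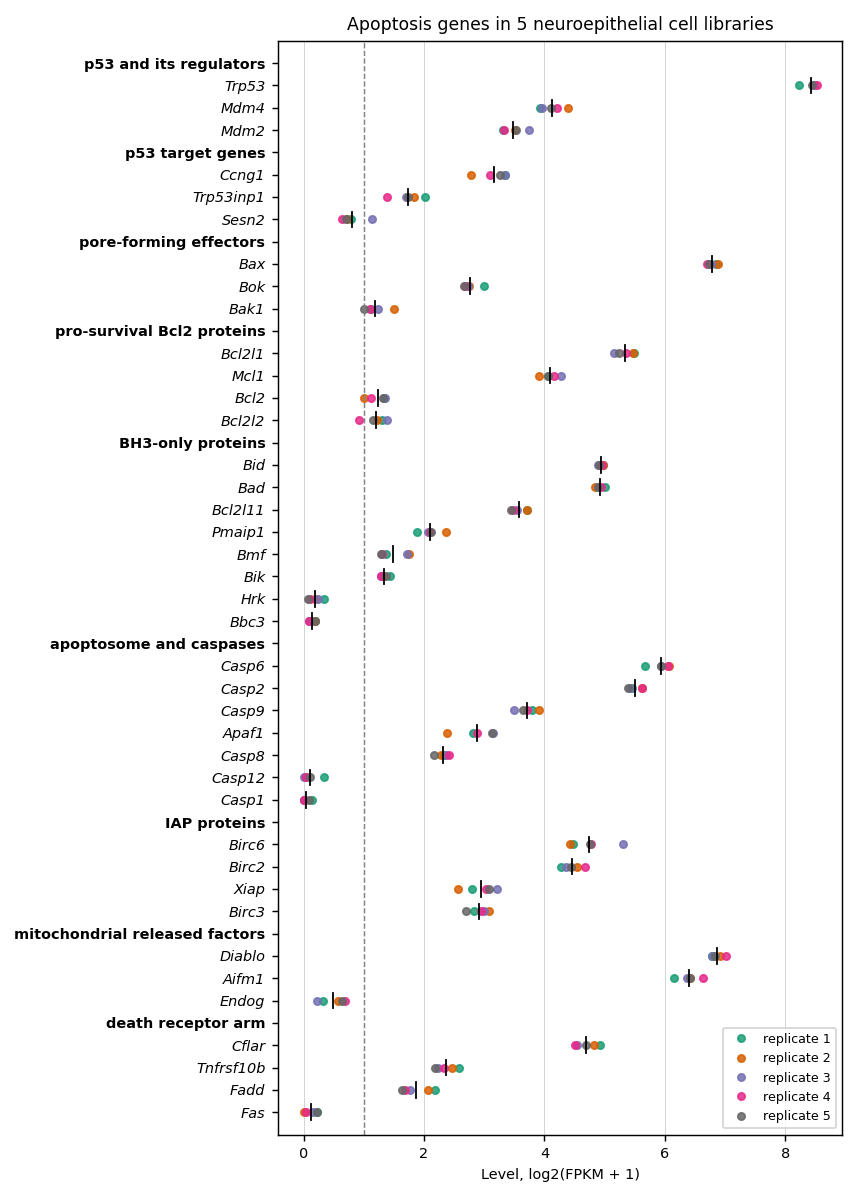
Level of each of the 39 measured apoptosis genes on the log2(FPKM + 1) scale (x axis), grouped by role, with a coloured point for each of the 5 libraries and a black bar for the mean; the dashed line is 1 FPKM. Trp53, Diablo and Bax lie farthest to the right, and Bbc3, Hrk, Casp1, Casp12 and Fas lie near 0.

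Trp53 itself had the highest level of all members (ENSMUSG00000059552, chromosome 11, 69580359 to 69591873 on mm10). It stood at 300.4, 357, 355, 367 and 346 FPKM in replicates 1 to 5, a mean of 345 ± 26, above 97.9% of tested genes. Replicate 1 was lowest and the other libraries lay within 346 to 367. The annotation holds a processed copy, Trp53-ps, so reads could have been split between both loci.

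Its inhibitors were far lower. Mdm2, the ubiquitin ligase that holds p53 down, stood at 8.90, 10.4, 12.4, 9.08 and 10.5 FPKM (mean 10.2 ± 1.39). Mdm4, a relative that binds p53 and works together with Mdm2, stood at 14.3, 20.04, 14.5, 17.5 and 16.3 (mean 16.5 ± 2.38), and it too has a processed copy in the annotation. The libraries of the 2 genes did not overlap, with Mdm4 higher in each. Within a library Mdm2 was 0.0297 ± 0.00359 times the level of Trp53, and on the log2 scale the difference of Mdm2 minus Trp53 was -4.95 ± 0.16. That of Mdm2 minus Mdm4 was -0.64 ± 0.28. In the 17 gene pairs compared in this way the sign was the same in 5 of 5 libraries for each pair, and the exact sign-flip permutation test, two-sided, gave p = 0.0625 and an adjusted p = 0.0625 for each, the smallest value that 5 libraries allow, so no pair could pass 0.05.

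The 3 members grouped here as p53 targets did not share its high level. Other members made under p53, such as Mdm2, Pmaip1, Bbc3 and Fas, are given with their own groups. Ccng1, a cyclin made under p53, stood at 9.14, 5.86, 9.19, 7.54 and 8.61 FPKM, a mean of 8.07 ± 1.4. Trp53inp1, a p53-induced nuclear protein, stood at 3.03, 2.55, 2.24, 1.63 and 2.34 (mean 2.36 ± 0.51). Replicate 2 was lowest for Ccng1 and replicate 4 for Trp53inp1, so the pair did not move together. Sesn2, a stress-induced regulator of growth signalling, was at 0.72, 0.65, 1.20, 0.56 and 0.63 FPKM, with replicate 3 alone above 1. Its call below 1 FPKM (limma adjusted p = 0.0441) was lost when any of 4 libraries was left out: the adjusted p was 0.0807 without replicate 1, 0.112 without replicate 2, 0.139 without replicate 4 and 0.122 without replicate 5. Without replicate 3, the one library above 1, the call held, with an adjusted p of 0.0024 by limma and a log2 difference from 1 FPKM of -0.29 in place of -0.20.

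A further list of 24 p53 target genes had 20 (83.3%, against 52.3% of all tested genes) above 1 FPKM, 2 below it and 2 uncalled. Its median was 5.37 FPKM. Siva1, a pro-apoptotic adaptor, was highest at 205 ± 6.75 FPKM, followed by the mitotic protein Gtse1 (33.5 ± 2.03) and the nuclease Aen (25.3 ± 2.67). Cdkn1a, the inhibitor of cyclin-dependent kinases that is the classical p53 target, was called neither way: it stood at 1.12, 1.01, 0.737, 0.33 and 1.25 FPKM, with replicates 3 and 4 under 1. Dram1, a lysosomal protein, was the lowest at 0.196 ± 0.155. Without replicate 4 the log2 difference of Cdkn1a from 1 FPKM was 0.015 and no longer negative (limma adjusted p = 0.873).

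Among 20 other genes that act on p53, 18 (90%, against 52.3% of all tested genes) lay above the level and 2 below. Their median was 22.8 FPKM. Rpl5 (1784 ± 185) and Rpl11 (1450 ± 109), ribosomal proteins that can bind Mdm2, were highest, though many processed copies make their levels uncertain, and the checkpoint kinase Chek1 followed at 73.9 ± 5.36. Cdkn2a, whose product Arf blocks Mdm2, was listed at 0 in replicates 1 to 4 and at 0.0664 FPKM in replicate 5. The p53 relative Trp73 had 0.00961 FPKM in replicate 1 and was listed at 0 otherwise. Such levels rest on few reads, and no difference between libraries was detectable at this depth.

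Among the 3 pore formers of the Bcl2 family, Bax held 93.9% ± 0.37 of the summed FPKM. Its level was 115, 117, 108, 103 and 106 FPKM in replicates 1 to 5 (mean 110 ± 5.99; chromosome 7, 45461697 to 45466898), above 93.2% of tested genes. The libraries lay within 1.14 times of each other. Bok, a less studied pore former, was at 6.998, 5.71, 5.63, 5.41 and 5.30 FPKM, with replicate 1 apart from the rest. Bak1, the partner that can replace Bax in many cells, was at 1.18, 1.81, 1.36, 1.15 and 0.996 FPKM and was called neither way (limma adjusted p = 0.0705). Within a library Bax stood 87.2 ± 16.1 times above Bak1, a log2 difference of 5.60 ± 0.15, and 19.0 ± 1.59 times above Bok. Exons of Bak1 share 437 bases with the opposite-strand gene Ggnbp1, and no strand-keeping step is described, so reads there could not be assigned. Bax shares 192 exon bases with Gm45808 on its own strand, and Bcl2 558 and Birc6 611 with antisense genes.

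**Figure D2:**
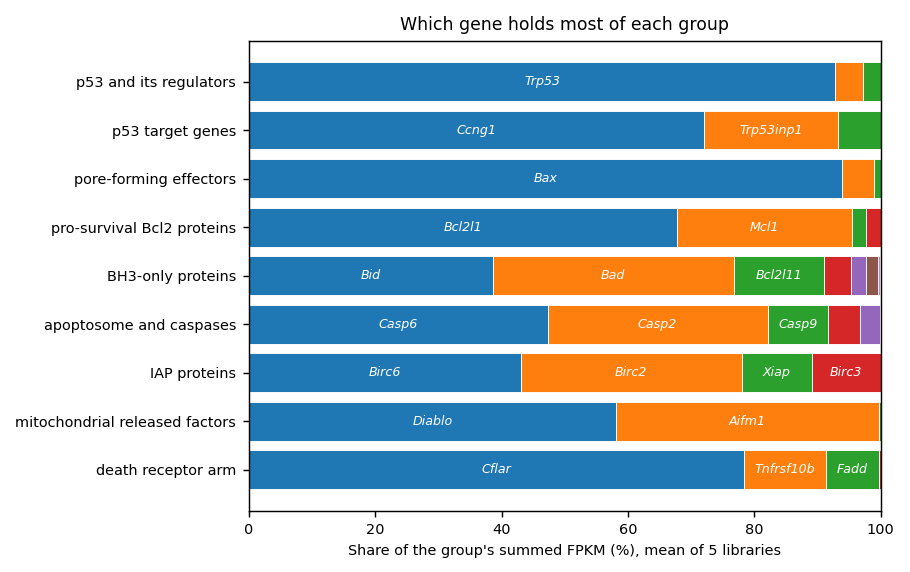
Share of each role group's summed FPKM held by each gene (x axis, percent, mean of 5 libraries); colours separate genes within a bar, and genes with at least 7% are named. Trp53, Bax, Cflar, Ccng1 and Bcl2l1 each hold 67.8% or more of their group, while the BH3-only and caspase groups are shared.

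On the pro-survival side Bcl2l1, which encodes Bcl-xL, known to keep immature neurons alive, held 67.8% ± 4.15 of the sum over the 4 measured genes and Mcl1, known to be needed by neural progenitors, 27.7% ± 3.62. Bcl2l1 stood at 44.0, 43.2, 34.7, 39.999 and 36.7 FPKM (mean 39.7 ± 4.03; chromosome 2, 152780668 to 152831728). Mcl1 stood at 15.7, 14.0, 18.5, 16.9 and 15.7 (mean 16.1 ± 1.66). Replicate 3 was lowest for Bcl2l1 and highest for Mcl1, and the libraries of the 2 genes did not overlap.

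Bcl2, the founding member of the family, stood at only 1.53, 1.01, 1.56, 1.16 and 1.497 FPKM (mean 1.35 ± 0.25). Bcl2l2, which encodes Bcl-w, was at 1.47, 1.32, 1.60, 0.884 and 1.23 and was called neither way (limma adjusted p = 0.0625). Both overlapped Bak1 in range. Bcl2l1 stood 30.5 ± 8.24 times above Bcl2 within a library and Mcl1 12.2 ± 1.91 times. Mcl1 minus Bcl2l1 was -1.25 ± 0.26 on the log2 scale. Bcl2 was called above 1 FPKM (limma adjusted p = 0.0296), but without replicates 1, 3 or 5 the adjusted p was 0.0722, 0.0845 and 0.0919, and Bcl2l2 was called above without replicate 4 (0.0245). Bcl2l2 shares 594 exon bases with Gm20521, a gene on the same strand that also has a row in the table.

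Summed over their genes, the pore formers exceeded the pro-survival members in every library. The pore-forming sum was 123, 125, 115, 109.6 and 112 FPKM and the pro-survival sum 62.7, 59.4, 56.3, 58.9 and 55.2 in replicates 1 to 5. The ratio ran from 1.86 to 2.10 (mean 2.00 ± 0.09) and is given with no test, since it is a score over chosen members, and it speaks of RNA and not of protein.

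Of the 8 BH3-only genes 6 lay above 1 FPKM, and the group had 3 main carriers. Bid, which Casp8 cuts to link the death receptors to the mitochondria, stood at 30.5, 30.2, 28.8, 30.2 and 29.0 FPKM (mean 29.7 ± 0.79). Bad, which growth factor signalling keeps inactive by phosphorylation, stood at 31.1, 27.7, 29.0, 29.8 and 28.8 (mean 29.3 ± 1.29). The 2 genes overlapped in range and held 38.7% ± 0.62 and 38.1% ± 1.52 of the group's sum, with 14.3% ± 0.96 in Bcl2l11. The log2 SD of Bid (0.037) was larger than that of only 0.783% of the 10983 genes that averaged 1 FPKM or more, and that of Bad than 4.38%. Bid shares 628 exon bases with the opposite-strand gene Bcl2l13 (11.2 ± 0.72 FPKM) and Bad 524 with Gpr137, so part of these reads could belong to those genes.

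Bcl2l11, which encodes Bim, a binder of all pro-survival members, was at 12.1, 12.0, 10.6, 10.2 and 9.93 FPKM (mean 10.98 ± 1.03). Pmaip1, which encodes Noxa, a p53 target that opposes Mcl1, was at 2.68, 4.12, 3.19, 3.27 and 3.34 (mean 3.32 ± 0.52). Replicates 1 and 2 were highest for Bcl2l11, whereas for Pmaip1 they were the lowest and the highest. Bmf, a BH3-only protein held by the cytoskeleton, ran from 1.45 to 2.35 FPKM with a median of 1.59, and Bik, a BH3-only protein of the endoplasmic reticulum, from 1.42 to 1.71 with a median of 1.49.

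Bbc3, which encodes Puma, a p53-induced killer in many cell types, lay near 0 (chromosome 7, 16308393 to 16318205). It was at 0.136, 0.142, 0.0601, 0.0655 and 0.134 FPKM, a mean of 0.11 ± 0.04, equal to about 1.98 to 5.92 reads by the implied totals. With so few reads the difference between the libraries at 0.06 and those at 0.14 was not detectable. Hrk, a BH3-only gene of dying neurons, was similar at 0.259, 0.137, 0.178, 0.0748 and 0.0501 FPKM. Bbc3 minus Pmaip1 was -1.96 ± 0.17 on the log2 scale, and Bcl2l11 stood 116 ± 46.6 times above Bbc3 within a library.

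**Figure D3:**
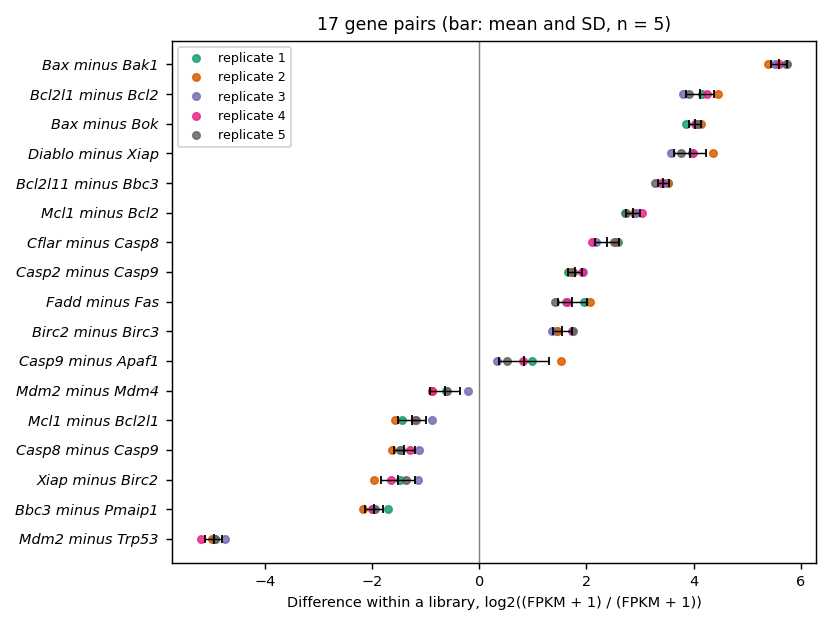
Difference between the 2 genes of each of 17 pairs within a library, on the log2(FPKM + 1) scale (x axis), with a coloured point per library and a bar for mean and SD (n = 5). No pair crosses 0; the widest difference is Bax over Bak1 (5.60) and the most negative is Mdm2 under Trp53 (-4.95).

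The caspases of cell death lay above 1 FPKM and the inflammatory ones near 0. Casp6, an executioner that cuts lamins, was at 49.8, 66.2, 60.4, 65.0 and 60.3 FPKM (mean 60.3 ± 6.46; chromosome 3, 129901425 to 129914103). Casp2, an initiator activated by the adaptors Pidd1 and Cradd, was at 42.6, 48.0, 41.8, 48.4 and 40.8 (mean 44.3 ± 3.59). The lowest library of Casp6 lay just above the highest of Casp2. Casp9, the initiator of the apoptosome, was at 12.9, 14.0, 10.2, 12.0 and 11.5 FPKM (mean 12.1 ± 1.44), and Casp8, that of the death receptors, at 4.05, 3.89, 4.14, 4.30 and 3.50 (mean 3.98 ± 0.31). These 2 did not overlap, and Casp8 minus Casp9 was -1.40 ± 0.19 on the log2 scale, while Casp2 stood 3.68 ± 0.36 times above Casp9. Casp9 shares 94 exon bases with the opposite-strand genes Cela2a and Ctrc.

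Apaf1, the scaffold of the apoptosome, varied more than the caspase it gathers. It was at 6.03, 4.24, 7.90, 6.37 and 7.75 FPKM (mean 6.46 ± 1.49), lowest in replicate 2 and highest in replicate 3, where Casp9 was highest and lowest. Casp9 minus Apaf1 ranged widely, at 0.84 ± 0.46 on the log2 scale, though Casp9 was higher in 5 of 5 libraries.

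Casp1 and Casp12, inflammatory caspases encoded close to each other on chromosome 9 (5298517 to 5307265 and 5345430 to 5373032), both lay below the level. Casp1 was listed at 0.101 FPKM in replicate 1, 0.0667 in replicate 5 and 0 in the others, and Casp12 at 0.268, 0.0169, 0, 0.0319 and 0.0707 in replicates 1 to 5. Replicate 1 was highest for each. Casp4, which lies between them and is named here because its values had been seen, was at 0.988 FPKM in replicate 1 and at 0.0449, 0.0628, 0 and 0.0815 in the others. Of 7 blood and immune markers 3 were highest in the same library: the leukocyte genes Ptprc (0.274 FPKM, against at most 0.0179 elsewhere), Spi1 (0.26, against at most 0.0855) and Csf1r (0.214, against at most 0.104). The other 4 were not: the microglial marker Cx3cr1 was at 0.0124 FPKM there and highest in replicate 2 (0.0358), the embryonic globin Hba-x was lowest there (0.464) and highest in replicate 5 (1.48), Hbb-bh1 was highest in replicate 4, and Aif1 was listed at 0 in all 5. These 7 markers, 4 of them below 1 FPKM and none above, summed to 2.39, 1.21, 2.67, 4.53 and 2.30 FPKM in replicates 1 to 5, of which the embryonic globin Hbb-bh1 made up 1.16, 0.555, 1.64, 3.67 and 0.733. The part of such cells in the caspase values was not tested.

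Among 13 other genes of caspase activation and its targets, 10 (76.9%, against 52.3% of all tested genes) lay above 1 FPKM and 3 below. Cytochrome c (Cycs) was at 405 ± 46.6 FPKM, with processed copies that make it uncertain, the caspase substrate Parp1 at 173 ± 7.72 and Birc5, an inhibitor-like protein of the mitotic spindle, at 332 ± 23.6. Casp14, a caspase of the skin, was listed at 0.0411 FPKM in replicate 1, 0.0203 in replicate 5 and 0 elsewhere.

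All 4 measured inhibitor of apoptosis (IAP) genes lay above the level. Birc6, a giant ubiquitin ligase, stood at 21.3, 20.4, 38.5, 26.3 and 26.0 FPKM (mean 26.5 ± 7.2; chromosome 17, 74528295 to 74703356). Xiap, which blocks caspases directly, stood at 5.98, 4.95, 8.30, 7.14 and 7.42 (mean 6.76 ± 1.31). Both were highest in replicate 3 and lowest in replicate 2, as was Apaf1. Birc6 had the largest spread of the 32 members that averaged 1 FPKM or more: its log2 SD of 0.35 exceeded that of 91.8% of all genes at such a mean, and that of Apaf1 (0.31) exceeded 88.0%.

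These genes have long transcripts, of 15768 bases for Birc6, 6834 for Xiap and 6577 for Apaf1. Of these genes only Birc6 has a transcript of at least 8000 bases. Over the 621 genes of that length the median log2 deviation from a gene's own mean was -0.09, -0.06, 0.11, 0.00 and 0.05 in replicates 1 to 5. Xiap and Apaf1 belong to the next shorter class. Over its 3494 genes the deviation was smaller in replicate 3, with -0.066, 0.002, 0.022, 0.020 and 0.015 in replicates 1 to 5. Over the 2437 genes under 2000 bases it was -0.05, 0.02, 0.00, 0.04 and -0.01. Replicate 3 also had the highest sum of mesenchyme markers (141 FPKM) and replicates 1 and 2 the lowest (38.6 and 66.7). The same held for neural crest markers (62.9, against 31.3 and 42.0). Sums of neuroepithelial (249) and neuron markers (87.7) were lowest in replicate 3. Those of surface ectoderm markers were highest in replicate 2 (137) and those of endothelial markers in replicate 5 (7.96). The part of transcript length and of other cells in the spread of Birc6, Xiap and Apaf1 was not tested, and in bulk samples fewer cells of a type and less RNA per cell cannot be told apart.

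Birc2 and Birc3, ubiquitin ligases of tumour necrosis factor (TNF) signalling that lie side by side on chromosome 9, differed in level. Birc2 was at 18.4, 22.3, 19.5, 24.5 and 20.7 FPKM and Birc3 at 6.12, 7.48, 6.99, 6.67 and 5.48. The ratio was 3.25 ± 0.45 within a library, and unlike Birc6 neither was highest in replicate 3. Xiap and Birc3 overlapped in range.

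Proteins that leave the mitochondria were among the highest members. Diablo, which displaces IAPs from caspases, stood at 109, 120.4, 109.6, 128 and 114 FPKM (mean 116 ± 8.06; chromosome 5, 123509765 to 123524176), above 93.6% of tested genes and 17.8 ± 4.2 times above Xiap within a library. Aifm1, a flavoprotein of the respiratory chain that can enter the nucleus, stood at 69.8, 84.3, 81.7, 97.8 and 84.5 (mean 83.6 ± 9.95). For these 2 genes replicate 1 was lowest and replicate 4 highest. Endog, a nuclease, was at only 0.254, 0.487, 0.169, 0.614 and 0.553 FPKM, about 2.97 to 14.9 reads. Diablo shares 1326 exon bases with the opposite-strand gene B3gnt4. It shares 1193 with Gm49027 on its own strand, for which no level was listed. Endog shares 379 with the opposite-strand gene Spout1.

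In a list of 16 other Bcl2-related and mitochondrial genes 13 (81.25%, against 52.3% of all tested genes) lay above the level and 2 below. Bnip3l, a receptor for the removal of mitochondria, was highest at 522 ± 27.9 FPKM, followed by the outer-membrane channels Vdac2 (402 ± 34.8) and Vdac3 (384 ± 39.3). Bcl2l10, a pro-survival gene of oocytes, had 0.0476 FPKM in replicate 3 and was listed at 0 elsewhere.

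Among the 4 members of the death receptor arm the inhibitor had the highest level, though Traf2 of a further list, given below, stood higher (39.3 FPKM). Cflar, a caspase-like protein without activity that competes with Casp8, was at 29.4, 27.5, 22.3, 21.7 and 24.7 FPKM (mean 25.1 ± 3.29) and held 78.4% ± 1.48 of the summed FPKM of the 4 genes. Within a library it stood 6.36 ± 1.06 times above Casp8. Tnfrsf10b, the mouse receptor for the death ligand TRAIL, was at 5.01, 4.55, 3.67, 4.04 and 3.55 FPKM (mean 4.16 ± 0.61), and Fadd, the adaptor that carries Casp8 to the receptors, at 3.53, 3.20, 2.41, 2.198 and 2.11 (mean 2.69 ± 0.64). For Cflar, Tnfrsf10b and Fadd alike, replicates 1 and 2 were the 2 highest libraries. The sums of neuroepithelial markers were highest in the same libraries (297 and 288 FPKM, against 249 to 284), as were those of neuron markers (117 and 124 FPKM, against 87.7 to 98.0). Surface ectoderm markers summed lowest in replicate 1 and highest in replicate 2. Sums of mesenchyme, neural crest and endothelial markers were lowest in replicates 1 and 2. Single markers could differ from their sum: Gap43 of the neuron list (11.9 and 13.3 FPKM, against 20.5 to 23.4) and Vim of the neuroepithelial list (46.8 and 44.0, against 57.4 to 63.1) were lowest there. The part of these cell types in the death receptor values was not tested. Fadd shares 239 exon bases with the antisense gene Faddos.

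Fas, a p53 target and the receptor for Fas ligand, was at 0.17, 0, 0.113, 0.0274 and 0.168 FPKM, at most about 5.52 reads. Its level lay within the reach of single reads, so its libraries could not be told apart. Fadd minus Fas was 1.74 ± 0.27 on the log2 scale.

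A further list of 15 death receptor genes had 8 above 1 FPKM, 5 below it, 1 uncalled and 1 listed at 0 throughout. The 8 above were 57.1% of the 14 tested, near the 52.3% of all tested genes. Below the level lay 41.4% of all tested genes. Traf2, an adaptor of TNF receptors, was highest at 39.3 ± 4.43 FPKM, followed by Sharpin, a subunit of the linear ubiquitin ligase (13.1 ± 2.17), and the receptor Tnfrsf1a (9.03 ± 2.43). The ligand genes were low: Tnf was listed at 0 in all 5 libraries, and Fasl at 0.0203 FPKM in replicate 4, 0.0249 in replicate 5 and 0 in the others.

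**Figure D4:**
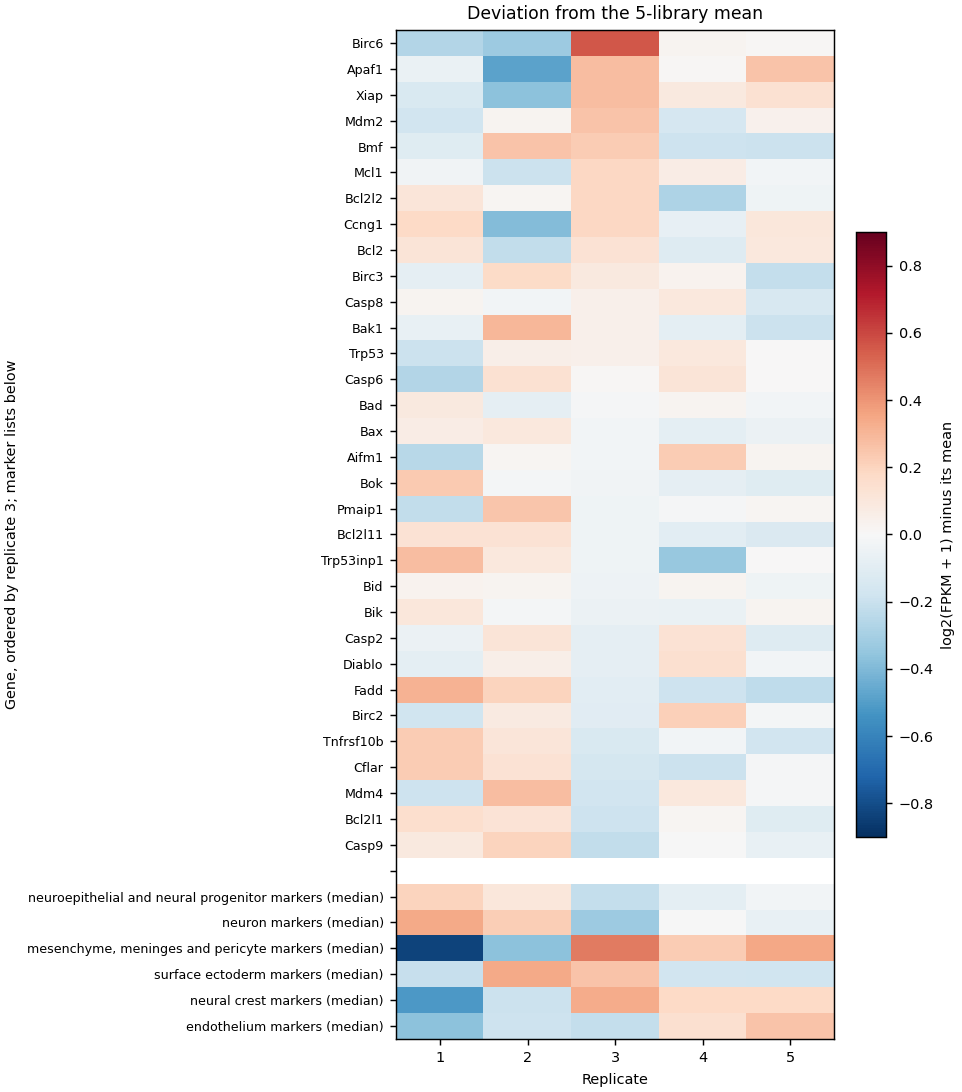
Deviation of each of the 32 members that averaged 1 FPKM or more from its own 5-library mean (colour, log2(FPKM + 1)), by replicate (columns), with the median of 6 marker lists underneath. Birc6, Apaf1 and Xiap are red in replicate 3 and blue in replicate 2, Fadd, Tnfrsf10b and Cflar are red in replicates 1 and 2, and Bid and Bad are pale throughout.

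Between libraries the apoptosis genes varied about as much as other genes. The median log2 SD of the 32 members that averaged 1 FPKM or more was 0.16, as it was for all 10983 genes at such a mean, and 17 of the 32 lay above that median. Only Birc6 was in the top 10% of spread, while Bax, Bid, Bad and Bik were in the lowest 10%. Replicate 1 was the highest library for 10 of the 32 members and replicate 5 for none, whereas replicate 5 was the lowest for 9. These counts were not made over all genes, so they cannot be read as particular to apoptosis genes. The median deviation of the 32 members in replicates 1 to 5 was -0.005, 0.069, -0.025, 0.002 and -0.025 on the log2 scale. Over all 10983 genes at such a mean it was -0.063, 0.011, 0.004, 0.031 and 0.009.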

How the data were processed

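Total RNA of 5 NEC libraries (1 group) was sequenced, per the labels' protocols, from poly-dT primed, template-switched cDNA amplified for 12 cycles, sheared and given 15 library PCR cycles, with single-end reads of 75 bases (on average 35 M per sample). The authors deposited 1 table of FPKM; TopHat2 2.0.11, Cuffdiff 2.2.1, cutadapt, CASAVA 1.8 and build mm10 appear in the submitters' processing notes without role or order, while annotation release and filters were not given in the sources. Reads carry no described molecular identifier, so PCR copies count as reads, and amplification can favour some transcripts.

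FPKM are not counts, so limma 3.58.1 (R 4.3.3) fitted log2(FPKM + 1) of genes above 0 in at least 1 library, with a variance trend; differences of low genes are understated on this scale. In simulated data with the means of these 19706 genes, 4.9% of 2000 genes set at 1 FPKM were called, and 90% and 84% of 50 genes shifted by -0.4 and 0.4 (log2) and 100% of those shifted by -0.8 and 0.8 were recovered. The depth was read from values under 0.15 FPKM of single-transcript genes longer than 800 bases, taking 200 bases off each transcript. Relative depth against replicate 1, from ratios of values under 0.3 FPKM, was 1.15, 0.903, 1.24 and 1.01 in replicates 2 to 5. A value of 0 can be a failed estimate. Coordinates, transcript lengths and exon overlaps are those of GENCODE M21 (mm10), which held 21537 of the identifiers; Cop1 and Tigar were matched by identifier. Pairs were tested by an exact sign-flip permutation test over 32 patterns. Members, lists, pairs and tests were chosen with earlier results of these data known. The genes named are all members, the 3 highest and the lowest of each other list, those listed at 0, Cdkn1a, Birc5, Cycs and Parp1; others are named with their values known. Some results of the other lists and pairs are not reported here. The alternatives were pseudocounts of 0.5 and 0.1, rescaled libraries, levels of 0.5 and 2 FPKM, other filters and variance models, and each library left out.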

Additional observations from a re-analysis of the deposited data

Results flagged for a closer look

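The 78 values checked were the members, the other genes named by the stated rule and the 17 pairs. In 5 of them the highest or lowest library stood apart, its gap to the nearest other library being over 0.71 of the whole range. Chance alone sets apart about 1 in 20. Genes named with their values known, among them Casp4, Cdkn2a and the markers, were not checked, so the count leaves out genes with 1 library far from the rest. Sesn2 was at 1.20 FPKM in replicate 3 against at most 0.721 in the others. Bok was at 6.998 FPKM in replicate 1 against at most 5.71. Casp12 was at 0.268 FPKM in replicate 1 against at most 0.0707. Bcl2l10, at 0.0476 FPKM in replicate 3, and Trp73, at 0.00961 in replicate 1, were listed at 0 in all other libraries.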

How the results depend on the processing

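Under those of the 15 alternatives that tested them, 31 of the 39 members kept their direction and their side of the threshold. So did 20 of the 21 tested genes that were named by the stated rule outside the members. Casp1, Casp12, Fas, Trp73, Bcl2l10, Casp14 and Fasl were not tested where a mean of at least 0.1 FPKM was required. They were counted on the other alternatives. All 17 pairs kept their direction. The number of members above 1 FPKM ran from 26 to 33 over all alternatives and from 29 to 31 with a library left out. The number below, 7, became 11 against a level of 2 FPKM and 4 when a mean of at least 0.1 FPKM was required, which leaves fewer low genes to test, and was 6 to 7 with a library left out. Against 2 FPKM the log2 difference turned negative for Bak1 (-0.39), Bcl2 (-0.36), Bcl2l2 (-0.39), Bik (-0.25) and Bmf (-0.10), and against 0.5 FPKM it turned positive for Sesn2 (0.21) and Cdkn1a (0.31), as a moved level must do for genes near it. Scaling every library to sum to 1000000 FPKM multiplied the FPKM by factors whose log2 was 0.24 to 0.42. Genes near 1 FPKM rose by less on the log2(FPKM + 1) scale, as Sesn2 did from -0.20 to -0.053. Bak1 and Bcl2l2 were then called above 1 FPKM, Sesn2 was not called, and Cdkn1a turned positive (0.056). With a library left out Cdkn1a ran from -0.17 to 0.015, positive without replicate 4. Without replicates 1 to 5 in turn Sesn2 ran from -0.16 to -0.29. Sesn2 also lost its call with pseudocounts of 0.5 and 0.1, with median-ratio scaling and with no filter, and Bak1 and Bcl2l2 gained theirs with no variance trend. No paired analysis was possible because there is 1 group. Few reads limit what can be said of Bbc3, Hrk, Casp1, Casp12, Endog and Fas, least so for Hrk with up to about 30.5 reads.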
